A study of Mus musculus with 7 samples.

Results

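The cytotoxic effector genes Gzma, Gzmb, Prf1, Nkg7, Ifng, Fasl, Eomes and Xcl1 were followed in single-cell RNA from the mouse pancreas. These 8 genes, of 33864 listed in the deposited count tables, were chosen by name, and all 8 are listed in the tables of every condition. Each was read within the cells whose cluster label begins with NK (1722 of 58473 cells) and over all cells of each mouse. From each of 7 mice, cells of the dissociated pancreas were barcoded by droplet and sequenced from the 3′ ends of their mRNA (10x Genomics), and each copied molecule was counted by its own tag, the UMI (unique molecular identifier). All mice were C57BL/6 and 2 months old. The 2 WT mice were wild type and drank doxycycline at 1 mg/ml for 7 days. The 3 i4F mice (genotype i4F-B) had the same doxycycline treatment and carried, heterozygous for each, the rtTA transactivator in Rosa26 and, in the Pparg locus, the 4 reprogramming factors under control of doxycycline (Oct4, Klf4, Sox2 and c-Myc). The cassette is not restricted to the pancreas, so that effects of the factors in acinar cells and in the lymphocytes themselves cannot be told apart in these libraries. The paper reports the factors induced in splenic NK cells of i4F mice. It found that such cells, primed in culture, killed a target cell line as WT NK cells did. The 2 caerulein mice were wild type and had 7 injections a day of the secretagogue caerulein at 100 µg/kg on 2 days, and their labels name no doxycycline. No vehicle-injected mice were analysed here, so caerulein and the difference in doxycycline cannot be told apart.

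Cytotoxic lymphocytes, which are NK cells and some T cells, kill a target cell in several ways. Perforin (Prf1) opens the target's membrane system to the granzymes, serine proteases such as Gzma and Gzmb that are stored with it in granules, and Nkg7 is a membrane protein of these granules. Fas ligand (Fasl) triggers death through the receptor Fas on the target, interferon gamma (Ifng) and the chemokine Xcl1 act on other cells at a distance, and Eomes is a T-box transcription factor of NK cells and of CD8+ T cells.

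The 8 genes lie on 6 chromosomes (GRCm38, GENCODE annotation, all protein coding): Gzma at chr13:113093825-113100981 on the minus strand, Gzmb at chr14:56258838-56262260 (minus), Prf1 at chr10:61297833-61304680 (plus), Nkg7 at chr7:43437073-43438249 (plus), Ifng at chr10:118441046-118445892 (plus), Fasl at chr1:161780689-161788495 (minus), Eomes at chr9:118478212-118486132 (plus) and Xcl1 at chr1:164931644-164935527 (minus). All 8 matched the RefSeq promoter table, whose start of Gzmb lies outside the annotated gene. The bases before the RefSeq start (GRCm38.p6, given 5′ to 3′ along the gene) are printed for Gzma, Prf1 and Ifng, whose levels in NK-labelled cells differed between i4F and WT mice past the test's threshold, and for Gzmb, whose levels did not. Capitals mark the letters of the motifs searched, as written or as the reverse complement. They are chr13:113100982-113101231 (minus) for Gzma, chr10:61297586-61297832 (plus) for Prf1, chr10:118440796-118441045 (plus) for Ifng and chr14:56262335-56262584 (minus) for Gzmb.
Gzma: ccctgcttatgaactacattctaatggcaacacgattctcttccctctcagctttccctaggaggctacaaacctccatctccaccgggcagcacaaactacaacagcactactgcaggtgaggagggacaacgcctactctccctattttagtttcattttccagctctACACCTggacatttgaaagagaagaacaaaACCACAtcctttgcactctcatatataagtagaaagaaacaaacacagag
Prf1: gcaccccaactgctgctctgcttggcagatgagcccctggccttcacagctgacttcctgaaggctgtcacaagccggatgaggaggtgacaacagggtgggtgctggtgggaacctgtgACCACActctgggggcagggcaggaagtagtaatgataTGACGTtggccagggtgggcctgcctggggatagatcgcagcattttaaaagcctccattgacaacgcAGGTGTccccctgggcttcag
Ifng: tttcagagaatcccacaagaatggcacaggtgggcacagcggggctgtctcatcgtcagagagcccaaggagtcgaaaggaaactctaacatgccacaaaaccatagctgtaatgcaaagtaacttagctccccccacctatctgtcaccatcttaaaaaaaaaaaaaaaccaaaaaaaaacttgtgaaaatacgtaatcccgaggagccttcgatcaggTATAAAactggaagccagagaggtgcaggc
Gzmb: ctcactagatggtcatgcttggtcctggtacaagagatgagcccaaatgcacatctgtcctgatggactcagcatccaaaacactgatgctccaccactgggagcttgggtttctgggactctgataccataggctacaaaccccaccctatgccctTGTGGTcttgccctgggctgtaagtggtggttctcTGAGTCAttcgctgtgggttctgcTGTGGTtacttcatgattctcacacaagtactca

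The T-box motif AGGTGT, the letters that factors such as Eomes read, was in the 250 bases before the start of 3 of the 8 genes, beginning 80 bases before the RefSeq start of Gzma, 24 before that of Prf1 and 14 before that of Nkg7. Positions are counted from the RefSeq start, and the printed Prf1 sequence (247 of the 250 bases) stops 3 bases short of it, where the GENCODE gene begins. It was in 11.8% of all 32851 promoters of the table. The Runx motif TGTGGT was in 5 of the 8 (14.0% of all promoters), at 50 bases before the start of Gzma, 130 before Prf1, 83 before Nkg7, 227 before Xcl1, and both 93 and 34 before Gzmb. The AP-1 motif TGANTCA was found before Gzmb (58 bases, 6.75% of all promoters), the TATA box TATAAA before Ifng (30 bases, 12.4%) and the letters TGACGT, part of the cyclic AMP response element, before Prf1 (92 bases, 6.47%). The Ets letters ACAGGAA (7.20%) and the E-box CACGTG (6.02%) were before none of the 8. No searched motif overlapped another in the printed sequences. These are matches of letters and were not tested as binding sites.

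The libraries held 4327 and 6326 cells (WT 1 and 2), 9811, 8218 and 7614 cells (i4F 1 to 3) and 15138 and 7039 cells (caerulein 1 and 2), with 15469018 to 64784216 UMIs each. Pairs of libraries shared 3 to 39 cell barcodes, at most 0.411% of the smaller library. The labels beginning with NK (NKs_Tcells in WT, NK_T in i4F) held 72 cells in WT 1, 121 in WT 2 and 194, 342 and 993 in i4F 1, 2 and 3, and no caerulein cell had such a label. Library i4F 3 stood apart: the summed level of 12 T cell markers over all its cells was 704 CPM (the counts-per-million unit, a gene's UMIs scaled to all UMIs of the same cells), against 17.5 to 67.4 in the other 6 libraries. The clusters were named by the authors for each condition on its own. The name of WT 2 and of both caerulein libraries begins with AM and that of the other 4 with AL, and what this series marks is not stated.

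The NK labels did not hold NK cells alone. A UMI of Cd3d, Cd3e or Cd3g, subunits of the T cell receptor complex, was found in 62.5% (WT 1), 63.6% (WT 2), 57.7% (i4F 1), 63.5% (i4F 2) and 81.9% (i4F 3) of them. A UMI of the NK receptors Ncr1, Klrb1c or Klre1 was in 34.7% and 20.7% of the WT cells and in 6.19%, 1.46% and 5.34% of the i4F cells, and the 2 groups did not overlap. The 9 NK markers that are not among the 8 genes summed to 2211 and 1434 CPM in WT, against 397, 198 and 286 in i4F, and among them only Klra4 in i4F 1 was at 0. The 12 T cell markers summed to 4921 and 5157 (WT) and to 5193, 4884 and 7034 (i4F) CPM. The 5 markers of gamma-delta T cells, which can be cytotoxic as well, summed to 810 and 1006 CPM in WT and to 340, 69.4 and 261 in i4F, without overlap, and Trdv4 in i4F 2 was at 0. A UMI of Cd8a or Cd8b1, subunits of the CD8 coreceptor of cytotoxic T cells, was in 6.94% and 7.44% of the WT cells and in 8.25%, 21.3% and 26.2% of the i4F cells. WT 2 and i4F 1 lay close together here, at 9 of 121 and 16 of 194 cells. The 5 neutrophil markers were all at 0 in both WT mice (which allows up to 16.4 and 12.8 CPM) and summed to 314, 23.1 and 8.10 CPM in i4F, where Ngp was at 0 in i4F 1, Csf3r and Ngp in i4F 2 and Retnlg and Csf3r in i4F 3. Depth differed too, with a median of 2247.5 and 1667 UMIs per NK-labelled cell in WT and of 782, 759.5 and 1186 in i4F. The part of this make-up and of depth in the differences below was not tested, and fewer cells that express a gene and less RNA of it per cell cannot be told apart in sums over a label.

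Within the NK labels, all 8 genes had a lower mean in i4F than in WT mice, and Gzma, Prf1 and Ifng passed the test. Of 3574 genes tested across the 5 mice with edgeR's quasi-likelihood test and Benjamini-Hochberg adjustment, 44 (1.23%) were called lower at an adjusted p threshold of 0.05 and 10 higher. NK markers outside the 8 were among those called lower: Ncr1, Klrb1c, Klre1, Klra8, Klra4 and Klra9. Their log2 differences ran from -3.57 ± 0.45 (Klra9, adjusted p = 0.0075) to -2.83 ± 0.44 (Klrb1c, adjusted p = 0.023). Klrk1 (-2.13 ± 0.48, adjusted p = 0.070) and Klrd1 (-0.89 ± 0.34, adjusted p = 0.27) were not called. Whether the 8 genes differ from these markers was not tested. The median log2 fold change of the 8 genes was -2.07 and that of all genes tested 0.0084, and no p-value is given for the list, whose members were chosen with earlier results known.

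Among the granule proteins, Gzma, a granzyme of NK cells, had 2315 and 942 CPM in the NK-labelled cells of WT 1 and 2 and 258, 39.7 and 150 in those of i4F 1, 2 and 3. It fell by 3.37 ± 0.59 on the log2 scale (SE, adjusted p = 0.027), a level 10.4-fold lower, and the groups did not overlap. Prf1, the pore-forming protein, had 328 and 193 CPM in WT and 20.6, 43.0 and 46.4 in i4F. It fell by 2.54 ± 0.39 (adjusted p = 0.022), with every i4F mouse under both WT mice. Prf1 rests on few molecules, 60 and 45 UMIs in WT and 4, 13 and 63 in i4F.

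Gzmb, the granzyme best known for setting off apoptosis, had 328 and 188 CPM in WT and 232, 126 and 33.1 in i4F. Here i4F 1 lay between the WT mice, and the log2 difference of -1.06 ± 0.62 did not pass the test (adjusted p = 0.50). Nkg7 had 1806 and 1126 CPM in WT and 551, 413 and 607 in i4F. Its groups did not overlap, and its log2 difference of -1.36 ± 0.30 missed the threshold (adjusted p = 0.067).

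Among the secreted signals, Ifng was the most even within groups, with 394 and 364 CPM in WT and 67.0, 56.2 and 58.9 in i4F. It fell by 2.52 ± 0.26 on the log2 scale (adjusted p = 0.0042), a level 5.73-fold lower. The levels of Ifng rest on 72 and 85 UMIs in WT and 13, 17 and 80 in i4F. The 5 highest cells held 47.2% and 63.5% of them in WT and 53.8%, 82.4% and 28.8% in i4F. Xcl1, a chemokine that draws cross-presenting dendritic cells, had 1188 and 822 CPM in WT and 222, 29.7 and 172 in i4F. All i4F mice lay under both WT mice, and the log2 difference of -2.72 ± 0.57 missed the threshold (adjusted p = 0.054).

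The death ligand Fasl had 148 and 64.2 CPM in WT and 82.4, 49.6 and 43.4 in i4F. The groups overlapped, and its log2 difference of -0.81 ± 0.42 was the smallest of the 8 (adjusted p = 0.42). The transcription factor Eomes had 120.4 and 51.4 CPM in WT and 30.9, 23.1 and 22.8 in i4F. Its groups did not overlap, and the log2 difference of -1.62 ± 0.45 did not pass the test (adjusted p = 0.15). It rests on few molecules, 22 and 12 UMIs in WT and 6, 7 and 31 in i4F.

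**Figure D1:**
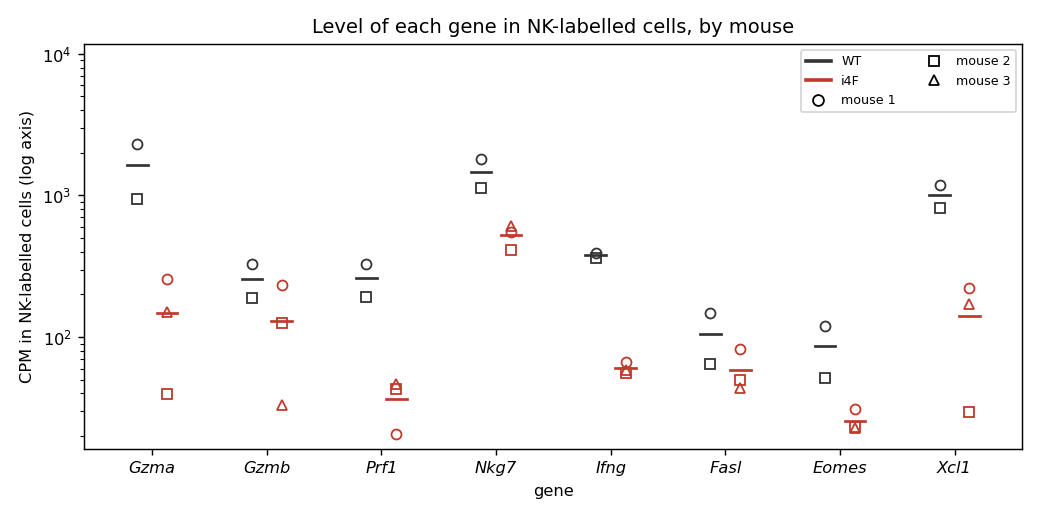
Level of each of the 8 genes in NK-labelled cells, in CPM on a log axis, with 1 symbol per mouse and a bar at the group mean (2 WT and 3 i4F mice). The groups overlap for Gzmb and Fasl and lie apart for the other 6 genes. The share of all genes tested that lie apart in this way was not counted.

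Some of these calls were lost when a single mouse was left out. Since mice are the replicates, the p-values measure only the spread between these 5 mice. Leaving out a WT mouse leaves 1 in that group, which is then assumed to vary like the i4F mice, since these alone give the spread. Without WT 1, 9 genes (0.193% of those tested) were called lower, and without i4F 2, 7 (0.224%), with Ifng the only one of the 8 in each. Gzma was then 6.11-fold lower without WT 1 (adjusted p = 0.19) and 7.56-fold lower without i4F 2 (adjusted p = 0.10), against 10.4-fold with all mice. Prf1 was 4.35-fold lower without WT 1 (adjusted p = 0.15) and 5.96-fold lower without i4F 2 (adjusted p = 0.13), against 5.83-fold with all mice, so that without i4F 2 its call went while its fold was no smaller. Without i4F 3, 67 (2.07%) were called lower, among them Gzma, Prf1, Nkg7, Ifng and Xcl1. Leaving out WT 2 keeps WT 1 as the only WT mouse, which was above WT 2 for all 8 genes, and no calls are given for that fit. Xcl1 passed without i4F 1 (adjusted p = 0.0437), in a fit that called more genes than the fit of all mice. Their number in either direction is given at the end. The share called lower in that fit is not given, so this pass cannot be weighed against it. Of the members not called, Eomes went from 3.08-fold to 1.91-fold lower and Fasl from 1.75-fold to 1.11-fold lower without WT 1, and Gzmb from 2.08-fold to 3.17-fold lower without i4F 1.

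Genes of other cell types moved with the group in the same libraries. Dcn, a gene of fibroblasts and stellate cells, had 1735 and 912 CPM in the NK-labelled cells of WT and 46.4, 19.8 and 62.6 in those of i4F, and Reg3b, secreted by injured acinar cells, had 153 and 8.56 in WT and 1391, 5472 and 9522 in i4F. In the edgeR fit of these cells Dcn was called lower (-4.68 ± 0.46, adjusted p = 0.0042) and Reg3b higher (6.32 ± 1.15, adjusted p = 0.030). Both were picked after their values were seen. The 6 macrophage markers summed to 0 (which allows up to 16.4 CPM) and 21.4 CPM in WT, where all 6 and 3 of them were at 0, and to 319, 182 and 60.4 in i4F, where Adgre1 was at 0 in i4F 1 and 2. The part of RNA from other cells in the result was not tested. Within the AL series, all 8 genes were higher in WT 1, its only WT mouse, than in each of the 3 i4F mice. WT 1 was also above WT 2 for each of the 8, as for Gzma (2315 against 942 CPM). The share of all genes in this order was not counted. The AM series holds 1 WT and no i4F mouse.

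**Figure D2:**
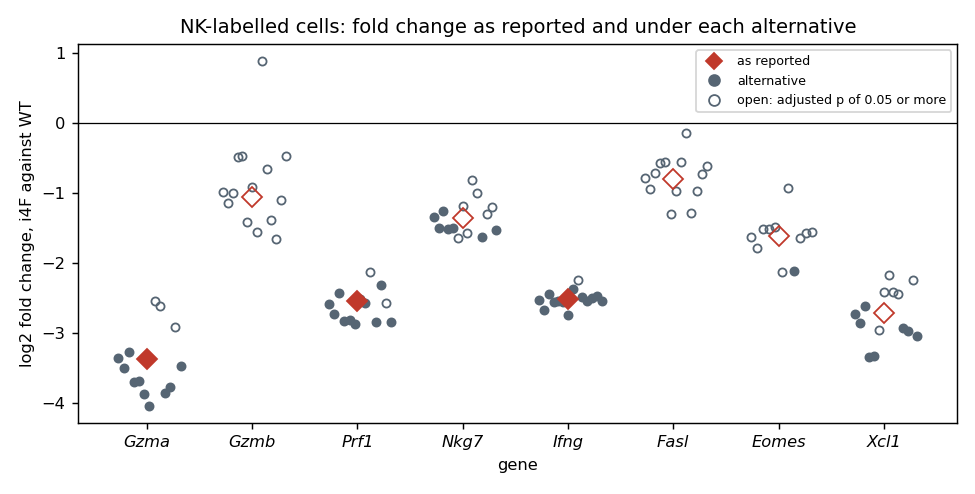
The log2 fold change, i4F against WT, of each of the 8 genes in NK-labelled cells, as reported (diamonds) and under each alternative (circles), filled where the adjusted p was under 0.05. Ifng lies between -2.74 and -2.25 throughout, and Gzmb has 1 value above 0, that of cells with a Cd3 UMI.

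The same cells were split by the T cell receptor complex to see where the molecules lie. Gzma lay almost wholly in cells without a Cd3 UMI, with 5.20% and 2.73% of its UMIs in Cd3+ cells of WT 1 and 2 and 4.0%, 16.7% and 5.88% in those of i4F 1, 2 and 3. Prf1 had 10.0% and 11.1% of its UMIs in Cd3+ cells in WT and 25.0%, 53.8% and 58.7% in i4F, where 1 of 4, 7 of 13 and 37 of 63 UMIs lay there. Ifng had 51.4% and 22.4% in Cd3+ cells in WT and 46.2%, 17.6% and 80.0% in i4F, which overlap. A cell without a Cd3 UMI may still be a T cell at these depths.

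Both kinds of cell were tested on their own. In cells without a Cd3 UMI (27 and 44 in WT, 82, 125 and 180 in i4F), 1.15% of 1474 genes were called lower, and 2 of the 6 members tested were among them, Prf1 at -2.57 ± 0.44 and Ifng at -2.38 ± 0.40 (adjusted p = 0.031 for each). Gzma had 5421 and 2555 CPM there in WT and 770, 109 and 986 in i4F, and its log2 difference of -2.54 ± 0.68 did not pass (adjusted p = 0.11). In Cd3+ cells, 0.412% of 2427 genes were called lower and none of the 5 members tested. Gzma and Prf1 were not among those tested. In the Cd3+ cells Prf1 had 55.2 and 33.4 CPM in WT (6 and 5 UMIs) and 7.59, 33.2 and 31.8 in i4F (1, 7 and 37 UMIs). Gzma had 202 and 40.0 CPM there in WT and 15.2, 9.49 and 10.3 in i4F. Gzmb had 9.20 and 86.7 CPM in the Cd3+ cells of WT and 220, 104 and 15.5 in those of i4F, a log2 difference of 0.88 ± 1.09 (adjusted p = 0.81) that ran the other way from its difference over all NK-labelled cells. Ifng had 340 and 127 in WT and 45.5, 14.2 and 55.0 in i4F in the Cd3+ cells, a log2 difference of -2.25 ± 0.54 (adjusted p = 0.13). Whether the 2 kinds of cell differ in their changes was not tested.

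The genes were also read in cells with a UMI of Ncr1, Klrb1c or Klre1, whatever their label. There were 29 and 31 such cells in WT, 23, 7 and 69 in i4F and 26 and 13 in caerulein mice, and values are given for the mice with at least 20. Of these cells, 25 of 29 and 25 of 31 had an NK label in WT, 12 of 23 in i4F 1, 53 of 69 in i4F 3 and none in caerulein 1, so that the sums mix other labels to different extents. Nkg7 had 3236 and 1876 CPM in WT, 291 and 1298 in i4F 1 and 3, and 467 in caerulein 1. Prf1 had 704 and 430 in WT, 149 in i4F 3 and 80.5 in caerulein 1, and in i4F 1 it had 1 UMI, under the limit of 3 that a count of 0 allows. Ifng had 668 and 702 in WT and 108 in i4F 3, and 3 and 2 UMIs in i4F 1 and caerulein 1. These cells were chosen by markers that themselves differ between the groups, so the values are given as a description.

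The share of cells that carried several of the 8 genes was lower in each i4F mouse than in both WT mice. A UMI of at least 2 of the genes was in 34 of 72 and 41 of 121 NK-labelled cells of WT (47.2%, exact 95% interval 35.3% to 59.3%, and 33.9%, 25.5% to 43.0%). In i4F it was in 35 of 194 (18.04%, 12.9% to 24.2%), 28 of 342 (8.19%, 5.51% to 11.6%) and 155 of 993 cells (15.6%, 13.4% to 18.02%). At least 4 of the genes shared a cell in 26.4% and 12.4% of the WT cells and in 4.64% and 1.81% of the cells of i4F 1 and 3. In i4F 2 it was in 0 of 342 cells, which allows a share of up to 0.877% when the limit is set at 3 cells, a one-sided limit and not an exact interval. None of the 8 was found in 45.8% and 46.3% of the WT cells and in 63.4%, 68.4% and 61.5% of the i4F cells. These intervals cover the counting of cells only, and the deeper WT cells give each gene a greater chance to be seen.

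**Figure D3:**
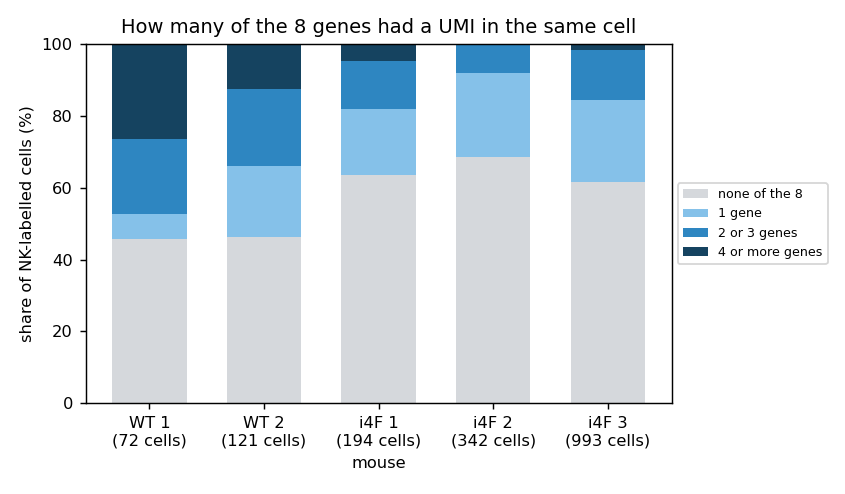
Share of NK-labelled cells (%) of each mouse with a UMI of none, 1, 2 or 3, or at least 4 of the 8 genes. Cells with at least 2 of the genes made up 33.9% and 47.2% in the WT mice and 8.19% to 18.04% in the i4F mice.

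Depth was matched by thinning each cell to 800 UMIs and giving the expected share of cells with a UMI, which leaves out 6 and 4 WT cells and 98, 185 and 137 i4F cells that hold fewer. For 7 of the 8 genes every i4F mouse then lay under both WT mice, Gzmb being the exception. The share of all genes in this order was not counted. The value of Gzma in i4F 1 depended on which cells were kept. It was in 4.64% of the cells unthinned and was expected in 4.09% at 500 UMIs. At 800 UMIs, with 98 of 194 cells left out, it was expected in 0.346%. Ifng was expected in 20.1% and 13.0% of the thinned WT cells and in 3.49%, 1.78% and 3.64% of the thinned i4F cells, against 31.9% and 19.0% and 5.67%, 2.34% and 5.04% unthinned. Prf1 was expected in 16.6% and 9.07% of the WT cells and in 0.971%, 2.37% and 3.62% of the i4F cells, against 23.6% and 14.0% and 2.06%, 3.22% and 5.14% unthinned. Gzmb was expected in 13.5% and 6.35% of the WT cells and in 9.10%, 5.24% and 1.94% of the i4F cells, so i4F 1 again lay between the WT mice. In ductal cells, which should lack these genes, no gene had a UMI in more than 0.759% of the cells of a WT or i4F mouse, at median depths of 2667 to 5396 UMIs.

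A few cells held much of the granzymes. In WT 1, 5 of 72 cells held 63.8% of the UMIs of Gzma, and 1 cell alone had 122. In WT 2 the 5 highest cells held 77.7%, and in i4F 1, 2 and 3 they held 80.0%, 91.7% and 66.2%, though i4F 2 had only 12 UMIs in 6 cells, which sets such a share high. For Gzmb the 5 highest cells held 42.2% in i4F 3 and from 62.2% to 77.3% in the other 4 mice. The cells with Gzma had 24.9 and 14.7 UMIs of it on average in WT and 5.56, 2.00 and 7.56 in i4F. These means were not matched for depth, and the median NK-labelled cell was deeper in WT. Nkg7 was spread more widely, with the 5 highest cells holding 28.2% and 23.6% of its UMIs in WT and 20.6%, 20.8% and 8.61% in i4F. It was in 50.0% and 45.5% of the NK-labelled cells of WT and in 27.3%, 22.8% and 31.7% of those of i4F, before thinning.

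Other genes of the cytotoxic pathway, in 6 lists with 66 genes of which 41 could be tested in the NK-labelled cells, gave 2 calls, both lower in i4F and both in the list of chemokines and chemokine receptors, where 1.23% of all genes tested were called lower. At that share, lists of this size without a call are no result about the lists. Ccl4 had 1511 and 1768 CPM in WT and 252, 95.8 and 160 in i4F (log2 difference -3.20 ± 0.35, adjusted p = 0.0051). Ccl3 had 487 and 248 in WT and 67.0, 19.8 and 43.4 in i4F (-2.98 ± 0.43, adjusted p = 0.016). Both are chemokines that activated NK and T cells secrete, and all 6 genes tested of that list of 8 had values below 0, with a median of -2.61. In the other 5 lists no gene passed, and their medians ran from -0.34 to -0.011.

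By list, 7 of 16 other granule proteins were tested, with Srgn, the proteoglycan that packs granule contents, at -0.16 ± 0.30 (adjusted p = 0.87) and the protease Ctsw at -1.16 ± 0.37 (adjusted p = 0.20). Of 9 genes of granule release 6 were tested, Coro1a at 0.07 ± 0.27 and Vamp8 at -0.46 ± 0.40 (adjusted p = 0.95 and 0.67). Of the 11 genes of death ligands, receptors and their signalling 6 were tested, Ltb at -0.09 ± 0.65 and the TNF receptor Tnfrsf1a at -1.22 ± 0.37 (adjusted p = 0.98 and 0.19). Of 12 genes of the interferon gamma pathway 9 were tested, all 9 below 0, with the receptor chain Ifngr1 at -0.04 ± 0.28 and Jak1 at -0.09 ± 0.25 (adjusted p = 0.98 and 0.91). Of 10 transcription factors 7 were tested, Id2 at -1.19 ± 0.34 and Tcf7 at 0.73 ± 0.28 (adjusted p = 0.17 and 0.28). Each value is the log2 difference, i4F against WT, with its SE.

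Over the whole tissue the picture depended on the mouse. Summed, the 8 genes had 72.6 and 45.5 CPM in WT 1 and 2, 5.65 and 6.99 in i4F 1 and 2, 115 in i4F 3, and 8.41 and 11.8 in caerulein 1 and 2. i4F 3 was thus above, and i4F 1 and 2 were below, both WT mice, and in CPM the value of i4F 3 exceeded both WT values for every gene but Gzma, for Gzmb only with 2 cells outside the NK labels counted. Per 1000 cells captured the sums were 282 and 148 UMIs in WT, 34.9, 32.1 and 234 in i4F, and 36.0 and 28.6 in caerulein mice. On that scale i4F 3 exceeded both WT mice for Nkg7 and Fasl alone and lay between them for Gzmb, Prf1, Eomes and Xcl1. It lay below both for Gzma and Ifng (12.6 UMIs of Ifng per 1000 cells against 16.9 and 13.9). i4F 1 and 2 and the caerulein mice were below both WT mice for all 8. The share of all genes in this order was not counted. In tests without i4F 3, 25.9% of all genes tested were called lower in i4F and 25.0% in caerulein mice. Other marker lists moved with the groups. The 6 heat shock and handling genes summed to 8539 and 14031 CPM over all cells in WT, 2027, 2038 and 6615 in i4F and 2741 and 3467 in caerulein mice. The 6 macrophage markers summed to 301 and 795 in WT, 2693, 2092 and 1040 in i4F and 4938 and 3887 in caerulein mice, and none of either list was at 0 in any mouse. Both lists set the WT mice apart from all others, and their part in the levels of the 8 genes was not tested.

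**Figure D4:**
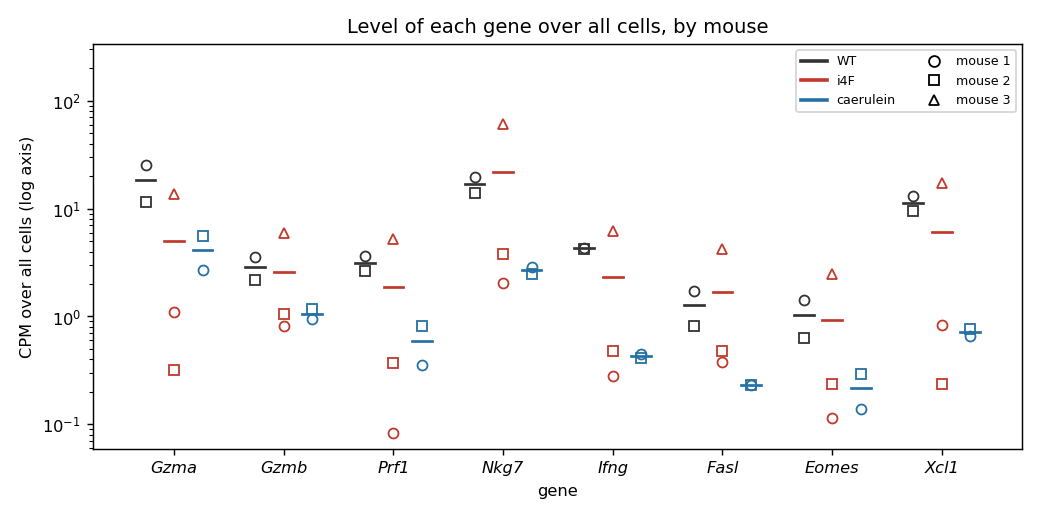
Level of each of the 8 genes over all cells, in CPM on a log axis, with 1 symbol per mouse and a bar at the group mean (2 WT, 3 i4F and 2 caerulein mice). i4F 3 (red triangles) lies above i4F 1 and 2 for all 8 genes, and the caerulein mice lie under both WT mice. The share of all genes in this order was not counted.

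Ifng had 4.34 and 4.27 CPM over all cells in WT, 0.281, 0.477 and 6.21 in i4F, and 0.448 and 0.409 in caerulein mice. Gzma had 25.3 and 11.5 in WT, 1.09, 0.318 and 13.7 in i4F, and 2.72 and 5.61 in caerulein mice. Nkg7 had 19.7 and 14.0 in WT, 2.06, 3.81 and 60.3 in i4F, and 2.90 and 2.46 in caerulein mice. In all 3 the caerulein mice and i4F 1 and 2 lay below the WT mice, and i4F 3 lay within or above them. Xcl1 had 13.0 and 9.45 in WT, 0.826, 0.238 and 17.1 in i4F, and 0.664 and 0.760 in caerulein mice. Prf1 had 3.63 and 2.62 in WT, 0.0826, 0.371 and 5.17 in i4F, and 0.355 and 0.819 in caerulein mice, and in i4F 1 that was 5 UMIs of 60538520. Gzmb had 3.57 and 2.18 in WT, 0.809, 1.06 and 5.88 in i4F, and 0.957 and 1.17 in caerulein mice. For Xcl1, Prf1 and Gzmb, i4F 3 was the highest and the other i4F and the caerulein mice lay under both WT mice. For Gzmb that order rested on 2 cells outside the NK labels, 1 labelled Macrophages_2 and 1 Ductal, with 44 of the 91 UMIs of i4F 3. Without them, a choice made after seeing the data, i4F 3 had 3.04 CPM, between the WT mice, and 6.17 UMIs per 1000 cells, under both (13.9 and 7.11). Fasl had 1.72 and 0.824 in WT, 0.380, 0.477 and 4.20 in i4F, and 0.232 and 0.234 in caerulein mice. Eomes had 1.43 and 0.630 in WT, 0.116, 0.238 and 2.46 in i4F, and 0.139 and 0.292 in caerulein mice. For both, the caerulein mice and i4F 1 and 2 lay under both WT mice and i4F 3 above them.

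In the fit of all 7 mice, i4F against WT gave 0 calls of 18340 genes (0%) and none of the 8 members, with log2 differences of -1.51 (Gzma) to 0.76 (Nkg7) and SEs of 0.86 to 1.45. Here edgeR had 6383 genes at an unadjusted p under 0.05, and DESeq2 called 4033 genes, with none of the 8 among them and no adjusted p for Nkg7. Without i4F 3, 25.9% of 19180 genes were called lower, and 7 of the 8 members were among them, led in size by Gzma (-4.21 ± 0.64, adjusted p = 0.0026) and Xcl1 (-3.92 ± 0.52, adjusted p = 0.0016), with Fasl the exception (-1.16 ± 0.43, adjusted p = 0.061). Restricted to the immune labels and with all mice, 0 of 12999 genes (0%) were called lower, and the members ran from -3.91 to -1.63, with 1527 genes at an unadjusted p under 0.05. NK-labelled cells were 72 of 223 and 121 of 746 immune-labelled cells in WT. In i4F 1, 2 and 3 they were 194 of 4166, 342 of 3969 and 993 of 2830. The part of this make-up in the values was not tested.

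Caerulein against WT, in the same fit and with the same WT mice, gave 722 lower calls (3.94%) and 944 higher (5.15%) but none of the 8 members. All 8 had values below 0, from Xcl1 at -3.57 ± 1.81 (adjusted p = 0.19) and Ifng at -2.90 ± 1.45 (adjusted p = 0.18) to Gzmb at -1.03 ± 0.96 (adjusted p = 0.44). The spread in this fit is shared by all 7 mice. Without i4F 3 the fit called 25.0% of genes lower and all 8 members with them (Ifng -2.89 ± 0.38, adjusted p = 0.0021), and with the i4F mice out altogether it called 24.2% lower and 7 of the 8. In the immune labels 0% was called lower in this comparison, and the members ran from -6.22 to -3.55. edgeR had 3133 genes there at an unadjusted p under 0.05. The immune labels held 8613 and 3234 cells in caerulein mice, none of them NK-labelled, against 223 and 746 in WT. The part of this make-up in the values was not tested either.

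i4F against caerulein gave 0 calls (0%), with members from 0.26 (Gzma) to 3.04 (Xcl1) on the log2 scale, 1652 calls without i4F 3 (8.61%), and 1 call in the immune labels (0.00769%), with none of the 8 among them. Here edgeR had 2637 genes at an unadjusted p under 0.05 and DESeq2 called 890. Without i4F 3 the members ran from -2.42 (Gzma, SE 0.62, adjusted p = 0.062) to 0.83 (Fasl), 6 of them below 0. The i4F and caerulein differences from WT share their WT mice and are not independent.

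The molecules of the 8 genes lay in few labels. The NK labels held 99.2% and 93.3% of them in WT and 83.0%, 89.4% and 86.6% in i4F. Gzmb in i4F 3 was the exception, with 45 of 91 UMIs there, while 1 cell of the 15 labelled Macrophages_2 held 31 and 1 ductal-labelled cell held 13. In WT 2, 1 cell labelled Endothelial_1 held 17 UMIs of Gzma.

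**Figure D5:**
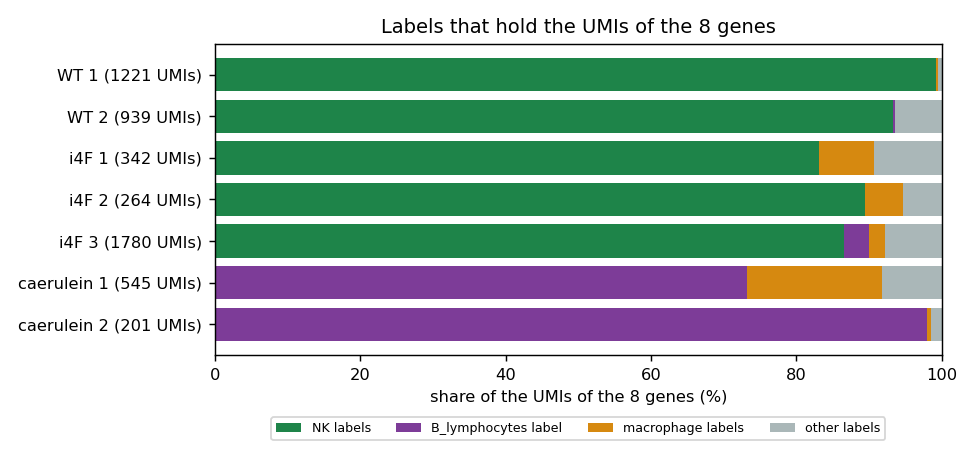
Share (%) of the UMIs of the 8 genes in the NK labels, the B_lymphocytes label, the macrophage labels and all other labels, for each mouse, with the number of UMIs beside its name. The NK labels hold 83.0% to 99.2% in WT and i4F mice, and the B_lymphocytes label most of the UMIs in both caerulein mice.

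In the caerulein mice, the label B_lymphocytes held 399 of 545 and 197 of 201 UMIs of the 8 genes. Its cells were checked against B cell markers, and the name did not hold: a UMI of Cd79a, Cd79b or Ms4a1 was found in 6.64% and 5.28% of its 994 and 398 cells, against 77.0% to 100% of the cells of that label in the other 5 mice. A UMI of the dendritic cell genes Flt3, Xcr1, Clec9a, Cd209a or Siglech was in 30.1% and 18.6% of them. Of its cells with a UMI of the 8 genes, 61 and 28, none had a UMI of these 3 B cell genes, 25 and 6 had a Cd3 UMI, and 15 and 12 had one of Ncr1, Klrb1c or Klre1.

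The caerulein cells with these genes were shallow. Cells with at least 3 of the 8 genes numbered 26 and 30 in WT, 14, 5 and 56 in i4F and 32 and 12 in caerulein mice, which is 6.01 and 4.74, 1.43, 0.608 and 7.35, and 2.11 and 1.70 per 1000 cells. Their median depth was 2187 and 1968 UMIs in WT, 817, 826 and 1533 in i4F, and 624.5 and 250.5 in caerulein mice. Of the caerulein cells, 22 of 32 and 12 of 12 had under 500 genes, against 7 of 14 and 2 of 5 in i4F 1 and 2. With a limit of 500 genes per cell, which removes these cells, the log2 difference of Prf1 between caerulein and WT went from -2.09 to -4.95 (adjusted p = 0.37 and 0.15). That limit keeps 66 of 72 and 115 of 121 NK-labelled cells in WT, and 92 of 194, 115 of 342 and 742 of 993 in i4F.

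The genes whose level followed the mean of the 8 most closely over 92 pairs of label and mouse were Cxcr6 (Pearson's r = 0.962), Il2rb (0.959), Trdc (0.956), Icos (0.949) and Ctsw (0.945), computed on log2(CPM + 10) for 15310 genes. Within the 8, Ifng was closest to Xcl1 (0.980), and Xcl1, Prf1 and Eomes were each closest to Ifng (0.980, 0.970 and 0.975). Gzma was closest to Gzmb (0.95) and then Nkg7 (0.944), and Gzmb to Nkg7 (0.956) and then Gzma. Nkg7 was closest to Cd3d (0.957), a T cell receptor subunit, and Fasl to Il2rb (0.967) and Zap70 (0.964). The pairs share libraries and differ in depth, and the values describe where the genes were found.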

How the data were processed

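Processed single-cell RNA data of 7 mouse pancreata (1 library each) were used. The authors used Cell Ranger (GRCm38) for 10x 3′ libraries and SoupX against ambient RNA, kept cells of at least 150 genes and a mitochondrial share below 5 percent, and clustered and named cells in Seurat, condition by condition. Deposited were whole-number UMI counts (3 gene by cell tables), and it is not stated whether these precede SoupX. Deposited with them are each cell's total count, number of genes, percent of mitochondrial counts and cluster name. Genes missing from a table were set to 0 there.

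Counts were summed per mouse over NK-labelled cells and over all cells and tested with edgeR 4.0.16 (two-sided quasi-likelihood test, TMM, filterByExpr, Benjamini-Hochberg adjustment, threshold 0.05). NK-labelled cells were fitted with 5 mice and all cells with 7 mice in 3 groups. Two-sided Wald tests of DESeq2 1.42.0 and other fits were alternatives. The fits were tested on simulated data. With 2 or 3 mice per group, an exact permutation test of single values could not reach 0.05 and was not used. Shares have exact Clopper-Pearson 95% intervals. The members, all lists and the promoter motifs were chosen with earlier results of these data known. Named were the 8 members and, per list, up to 3 genes past the threshold in i4F against WT or else the 2 with most UMIs. Dcn, Reg3b and the markers of cell types were named besides. Doublets were not called, and cells of several types under 1 label were kept.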

Additional observations from a re-analysis of the deposited data

How the results depend on the processing

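In NK-labelled cells the count of 54 genes called (i4F against WT) became 98 with DESeq2, 82 without TMM, 247 without the filter on low counts, 29 in cells without a Cd3 UMI, 14 in cells with one, and 8 to 101 when a mouse was left out (10 without WT 1, 8 without i4F 2, 101 without i4F 1 or i4F 3). Of the members' values under all alternatives there, 83 kept direction and side of the threshold, 16 passed it newly, 6 no longer passed, and 1 reversed, Gzmb at 0.88 in Cd3+ cells. The fit of 2 groups alone was not run there, since the fit holds only these. With the replicate number as a term (replicate block) 256 genes were called, or 253 without i4F 3. The labels name no pairing of same-numbered mice. Their deviations correlated at 0.0767 and -0.0634 in NK-labelled cells. Over all cells they correlated at -0.3689 between WT and caerulein and from -0.0533 to 0.0877 otherwise. With 2 WT mice, the deviations of WT 1 mirror those of WT 2. A differently numbered pair then gives the same size with the other sign (0.3689 for WT 1 and caerulein 2). These values cannot show whether mice were paired.

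Over all cells, i4F against WT went from 0 calls to 4033 with DESeq2, 2405 without TMM (456 higher, 1949 lower), 2076 without the filter and 8138 with the replicate block, and to 0 to 9543 with a mouse left out, the latter without i4F 3. Gzmb reversed to -0.19 without TMM, -1.22 with the block, -0.048 with the library name series as a term, -0.31 in cells of at least 500 genes and -2.13 in immune labels. Nkg7 reversed to -2.14 with the block and -1.64 in immune labels, Fasl to -1.13 and -1.63, and Eomes to -2.17 and -2.25, besides -0.26 without TMM and -0.28 with the series. With a mouse left out, Gzmb ran from -1.22 to 0.64, Prf1 from -3.49 to 0.18, Nkg7 from -2.14 to 1.32, Fasl from -1.16 to 1.25, Eomes from -2.16 to 0.74 and Xcl1 from -3.92 to 0.053.

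Caerulein against WT went from 1666 calls to 5046 with DESeq2, 2914 without TMM (652 higher and 2262 lower, against 944 and 722), 2830 without the filter, 8024 with these groups alone, 7426 with the replicate block, 0 with the library name series, 0 in immune labels, and 0 to 8909 with a mouse left out, with no member reversed. i4F against caerulein went from 0 to 890 with DESeq2, 100 without the filter, 1 with these groups alone, 514 with the block, 1 in immune labels and 0 to 1652 with a mouse left out. With the block Gzma reversed to -2.60, Gzmb to -0.18, Prf1 to -1.41, Ifng to -0.30, Eomes to -0.17 and Xcl1 to -0.39, and with the series Gzma to -0.71. With a mouse left out, Gzma ran from -2.42 to 0.83, Gzmb from -0.18 to 1.68, Prf1 from -1.33 to 2.29, Ifng from -0.26 to 2.88, Eomes from -0.15 to 2.68 and Xcl1 from -0.34 to 3.62, each lowest without i4F 3. Cause was not tested for any of these. Thinned to 500 UMIs, 6 of the 8 members in place of 7 had every i4F mouse below both WT mice, Fasl and Gzmb being the exceptions. The share of all genes in this order was not counted at either depth. Without TMM the median of all genes lay at -0.13 (NK-labelled cells), -0.34 (i4F against WT) and -0.45 (caerulein against WT) on the log2 scale. The immune labels in both caerulein comparisons and the block without i4F 3 were chosen after seeing the data. Small UMI numbers limit the NK-labelled values of i4F 1 and 2, at 4 to 17 UMIs for Prf1, Ifng, Fasl and Eomes, and 12 for Gzma and 9 for Xcl1 in i4F 2.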
